A study of Mus musculus with 6 samples.

Results

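The alpha and beta crystallins are the 8 genes Cryaa, Cryab, Cryba1, Cryba2, Cryba4, Crybb1, Crybb2 and Crybb3, taken by symbol from the 39179 gene rows of the deposited counts. They were chosen as a family already seen to differ between the genotypes in these libraries, so their levels and fitted changes are given as a description, and the calls on them are not evidence of a change. The study sequenced retinal RNA of newborn mice at postnatal day 0.5, 3 per group, of mixed and mainly CD-1 background. The conditional knockout (cKO) mice carried Lhx2 lox/lox with Pdgfrα-Cre, and the controls carried Lhx2 lox/lox without Cre, although the sample titles and series text name them as wild type. Both groups therefore share the floxed Lhx2 alleles. Recombination in the cKO mice is driven by the Pdgfrα promoter, and which cells had recombined is not stated in the labels. The libraries keep their label numbers, cKO 1, 2 and 3 and control 2, 3 and 4.

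Crystallins are the soluble proteins that fill the fibre cells of the eye lens. Alpha crystallins belong to the small heat shock proteins and hold unfolding proteins in solution, and beta crystallins are built from Greek key motifs and pack at high concentration in the lens. The beta members are named acidic (A) or basic (B) after their charge. In the retina, crystallin transcripts are known at low levels in neurons, glia and pigment epithelium, and are known to rise after injury.

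Gene counts per library ran from 31483170 to 66947478. The libraries fell into 2 sets that cross genotype, defined here by the row for reads that fit more than one gene, as a percentage of all counts. That row held 3.13 to 3.20% in cKO 1, cKO 2 and control 2 (set A), and 2.63 to 2.69% in cKO 3, control 3 and control 4 (set B). Mitochondrial genes made up 1.15 to 1.79% of the gene counts of set A libraries and 7.14 to 9.55% of those of set B. Sex read from 4 Y-linked genes was female in all 3 cKO mice and in control 3, and male in controls 2 and 4. Lhx2, the targeted gene, was at 224 to 287 CPM (counts scaled to an equal library total) in cKO retinas and 258 to 398 CPM in controls. In edgeR's quasi-likelihood test its log2 fold change was -0.40 (SE 0.10) with library set as a term (adjusted p = 0.0338) and -0.27 without it (adjusted p = 0.817). The reads counted on Lhx2 may come from exons outside the deleted part.

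The promoters of 7 members were found in RefSeq (GRCm38.p6), namely all but Cryab. The 150 bases before the RefSeq start are shown for 6 of them, all but Cryba2. For Cryaa that start lies downstream of the start of the gene in GENCODE (31677807). Most of the bases shown for Cryaa, TGCTGA among them, therefore lie inside the gene by the GENCODE coordinates. Capitals mark TGCTGA, the core bound by Maf transcription factors, on either strand, and TATAAA, the letters of the TATA box.
Cryaa, chr17:31677781-31677930, plus strand: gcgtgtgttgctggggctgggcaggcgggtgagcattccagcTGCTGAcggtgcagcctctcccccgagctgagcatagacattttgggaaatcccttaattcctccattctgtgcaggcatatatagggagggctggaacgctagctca
Cryba1, chr11:77725294-77725443, minus strand: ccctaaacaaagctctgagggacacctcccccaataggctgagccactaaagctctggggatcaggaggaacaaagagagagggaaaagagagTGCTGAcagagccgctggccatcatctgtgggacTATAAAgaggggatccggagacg
Cryba4, chr5:112252519-112252668, minus strand: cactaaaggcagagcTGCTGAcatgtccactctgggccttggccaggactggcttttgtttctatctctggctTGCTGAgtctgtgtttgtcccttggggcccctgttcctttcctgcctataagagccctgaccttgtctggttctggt
Crybb1, chr5:112255670-112255819, plus strand: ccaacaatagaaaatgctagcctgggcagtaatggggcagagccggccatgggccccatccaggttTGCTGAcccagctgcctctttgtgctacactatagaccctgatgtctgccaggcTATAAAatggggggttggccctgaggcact
Crybb2, chr5:113070118-113070267, minus strand: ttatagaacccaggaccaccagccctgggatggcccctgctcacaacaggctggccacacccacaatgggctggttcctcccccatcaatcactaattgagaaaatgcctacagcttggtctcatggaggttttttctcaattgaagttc
Crybb3, chr5:113081585-113081734, minus strand: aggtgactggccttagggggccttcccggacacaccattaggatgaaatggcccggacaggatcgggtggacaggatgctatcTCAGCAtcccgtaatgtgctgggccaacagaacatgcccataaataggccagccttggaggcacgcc

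From 250 bases before to 50 bases after the start, 6 of the 7 promoters held TGCTGA, against 19.5% of 32851 RefSeq mouse promoters of the same length. That background left out the promoters of a whole chromosome, on which none of the 7 genes lies. The exception was Crybb2, whose letters held neither TGCTGA nor TATAAA in this window. TATAAA was found in 3 of the 7 (Cryba1, Cryba2 and Crybb1), against 13.6% of the background promoters. The Cryba2 match lies across the transcription start, while those of Cryba1 and Crybb1 begin at bases -23 and -30. The E-box CAGCTG was found in 4 of the 7, against 16.3%, and in Cryaa it overlaps TGCTGA. The Sox cores ACAAAG or ACAAT were found in 5 of the 7, against 42.9%. The heat shock element letters GAANNTTC or TTCNNGAA occurred in Cryba1 alone, against 15.1% of the background promoters. These matches describe the letters only and are not binding sites, and their relation to the transcript levels was not tested.

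**Figure D1:**
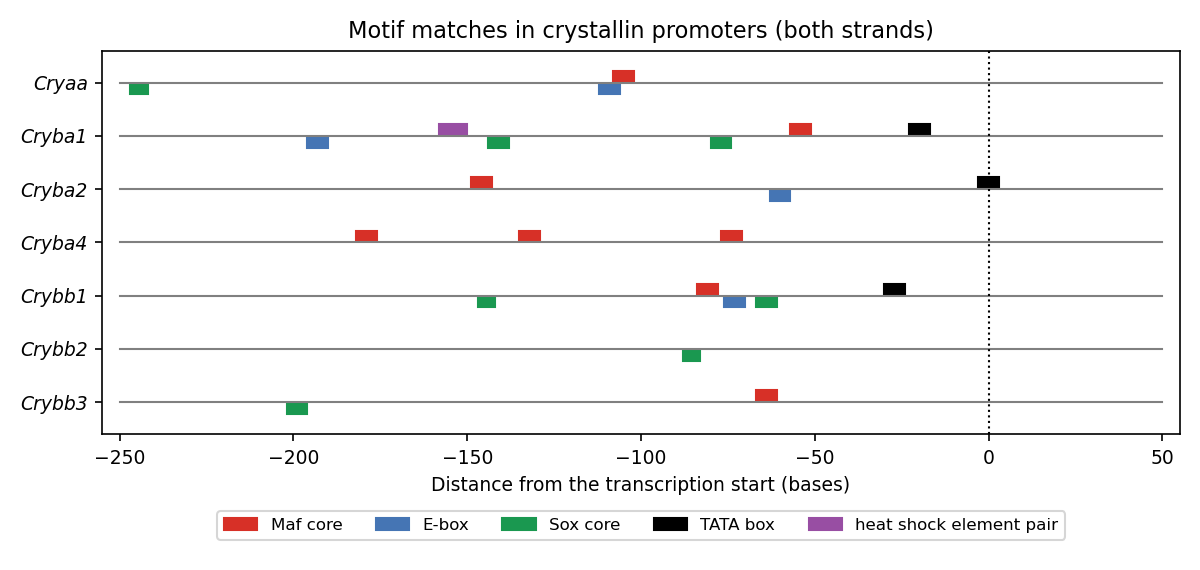
Motif matches on both strands in the promoters of 7 members, from 250 bases before to 50 bases after the transcription start (x axis, bases; dotted line, start). A TGCTGA match (red, Maf core) lies in each promoter except that of Crybb2.

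Alpha and beta crystallin reads were abundant in every cKO retina and nearly absent from every control. The family had 122668, 163320 and 24673 reads in cKO 1, 2 and 3, against 212, 49 and 27 reads in controls 2, 3 and 4. Scaled by the trimmed mean of M values (TMM), this came to 2188, 2256 and 839 CPM in the cKO libraries, against 4.63, 1.47 and 0.894 CPM in the controls. The lowest cKO library stood far above the highest control, and cKO 3 was the lowest of the cKO libraries. The difference of the group means of log2 summed CPM was 9.78 (SD 0.811 in cKO and 1.22 in control, n = 3 each). Summed over libraries within set A the ratio of cKO to control was 481 (95% counting interval 420 to 553), and within set B it was 703 (562 to 893). Such intervals cover counting error only. In bulk retina, more cells that express a gene and more RNA per cell cannot be told apart.

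**Figure D2:**
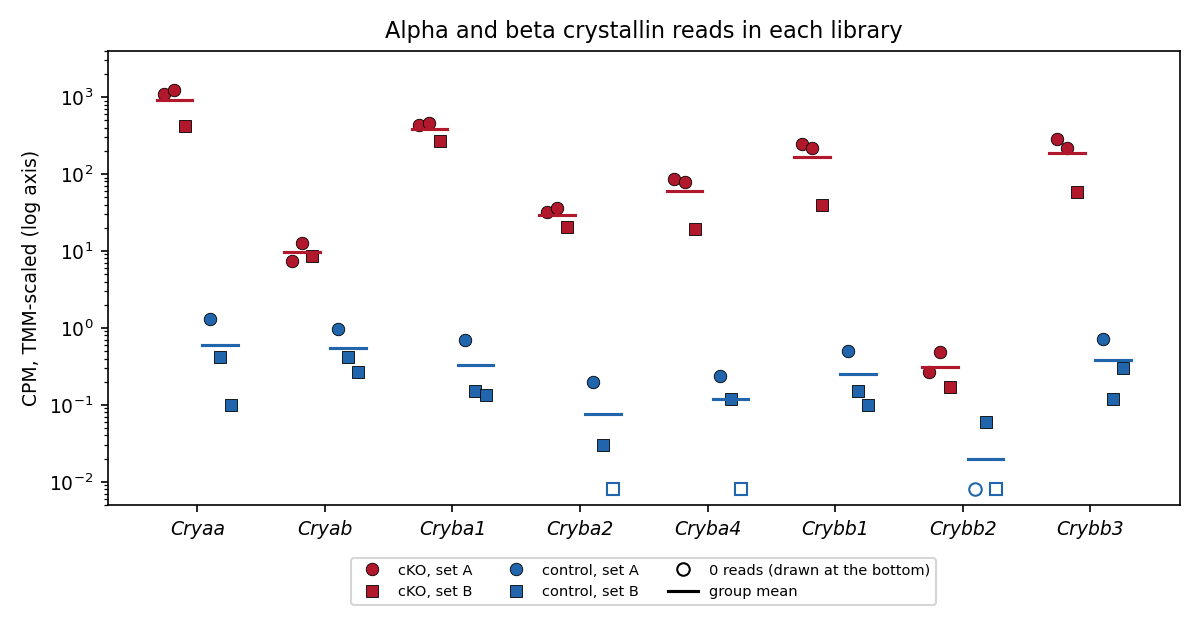
CPM of each member in each library on a log axis, with cKO libraries left of controls; circles are set A, squares set B, bars group means, and open symbols libraries with 0 reads. In all 8 genes the lowest cKO library lies above the highest control, by the least in Crybb2.

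Cryaa encodes alpha A crystallin, the lens form of the small heat shock protein pair. This gene (ENSMUSG00000024041; on the plus strand of chromosome 17 in GRCm38, 31677807 to 31681733) reached 1100.4, 1235 and 423 CPM in cKO 1, 2 and 3, against 1.29, 0.419 and 0.0993 CPM in controls 2, 3 and 4. It ranked 38th, 31st and 298th of all gene rows by CPM in cKO 1, 2 and 3. The fitted log2 fold change was 10.09 (SE 0.25) with library set as a term and 10.52 (SE 1.10) without it. An annotated antisense transcript overlaps 13.2% of its exon bases and has no row of its own in the counts.

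Cryab encodes alpha B crystallin, which is also made outside the lens, in heart, muscle and glia. Its reads (ENSMUSG00000032060; chromosome 9, 50751325 to 50756636, plus strand) came to 7.40, 12.8 and 8.61 CPM in cKO 1, 2 and 3, against 0.983, 0.419 and 0.265 CPM in controls 2, 3 and 4. In the controls its CPM was near that of Cryaa, and in the cKO libraries it was far below Cryaa. The groups did not overlap, and the fitted log2 fold change was 3.92 (SE 0.36). Hspb2, another small heat shock gene, lies head to head with Cryab and shares 17.0% of its exon bases on the opposite strand, so reads there may have been set aside as ambiguous. Hspb2 itself held 6, 13 and 3 reads in cKO 1, 2 and 3, against 2, 0 and 0 reads in controls 2, 3 and 4.

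Among the acidic beta crystallins, Cryba1 was the most abundant. This gene yields the beta A3 and beta A1 proteins from the same transcript (ENSMUSG00000000724; chromosome 11, 77718615 to 77725283, minus strand). It reached 435, 456 and 270.1 CPM in cKO 1, 2 and 3, against 0.699, 0.150 and 0.132 CPM in controls 2, 3 and 4. Its cKO libraries lay closer to each other than those of Cryaa, and the fitted log2 fold change was 9.85 (SE 0.23).

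Cryba4 (ENSMUSG00000066975; chromosome 5, 112246493 to 112252518, minus strand) was at 85.1, 79.0 and 19.0 CPM in cKO 1, 2 and 3, against 0.240, 0.120 and 0 CPM in controls 2, 3 and 4. Cryba2 (ENSMUSG00000006546; chromosome 1, 74889934 to 74893143, minus strand) was at 32.0, 36.1 and 20.7 CPM in cKO 1, 2 and 3, against 0.197, 0.0299 and 0 CPM in controls 2, 3 and 4. Both acidic genes were read in every cKO library and had no read in control 4. The fitted log2 fold changes were 8.34 (SE 0.25) for Cryba4 and 8.13 (SE 0.32) for Cryba2, which rest on 15 and 10 reads over the 3 controls.

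Crybb1 and Crybb3 were the abundant basic members. Crybb1 (ENSMUSG00000029343; plus strand of chromosome 5, 112255815 to 112269585) reached 245, 219 and 39.2 CPM in cKO 1, 2 and 3, against 0.502, 0.150 and 0.0993 CPM in controls 2, 3 and 4. Crybb3 (ENSMUSG00000029352; chromosome 5, 113075839 to 113081584, minus strand) was at 283, 217 and 59.1 CPM in cKO 1, 2 and 3, against 0.721, 0.120 and 0.298 CPM in controls 2, 3 and 4. For both genes cKO 3 was well below the other cKO libraries and still above every control. The fitted log2 fold changes were 8.69 (SE 0.16) and 8.35 (SE 0.21).

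Crybb2, a main basic crystallin of the adult lens, was hardly read at this age. This gene (ENSMUSG00000042240; chromosome 5, 113058258 to 113070117, minus strand) had 15, 35 and 5 reads in cKO 1, 2 and 3, against 0, 2 and 0 reads in controls 2, 3 and 4. Summed over groups the ratio was 19.1 (95% counting interval 5.03 to 161). Crybb2 lies only 5721 bases from Crybb3, which had 15881, 15693 and 1738 reads in the same cKO libraries. With so few reads it did not pass the filter on low counts and was not tested.

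The other 7 members passed that filter through their cKO libraries, since their controls hold few reads. With library set as a term, edgeR called all 7 higher in cKO at an adjusted p below 0.05, where it called 6.36% of all 16691 tested genes higher and 5.63% lower, 12% in all. Without the term 6 of the 7 were called, all but Cryab, against 0.216% of all genes. Every cKO library exceeded every control in all 8 members, as it did for 8.38% of the genes tested. As the family was chosen from this contrast, nothing is read from these counts.

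Levels of different genes were compared per kilobase of exon length, as TPM, in which the length-scaled values of every library have the same sum. In cKO retinas the order of mean level was Cryaa (1623 ± 873 TPM), Cryba1 (878 ± 303), Crybb1 (629 ± 435), Crybb3 (293 ± 188), Cryba4 (268.0 ± 170), Cryba2 (89.7 ± 32.1), Cryab (23.4 ± 9.05) and Crybb2 (0.561 ± 0.342; SD, n = 3). The order was the same in each cKO library, except that Cryba4 stood above Crybb3 in cKO 2. By their spread over libraries, neighbours in the order from Cryaa to Cryba2 overlapped within 1 SD, and Cryba2, Cryab and Crybb2 did not overlap with each other.

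The makeup of the family also differed between the groups. Cryab took 0.338, 0.569 and 1.03% of family reads in cKO 1, 2 and 3, against 21.2, 28.6 and 29.6% in controls 2, 3 and 4. Cryaa took 50.3, 54.8 and 50.3% in cKO 1, 2 and 3, against 27.8, 28.6 and 11.1% in controls 2, 3 and 4. Neither gene's shares overlapped between the groups. The exact 95% binomial intervals of Cryab were 15.9 to 27.4%, 16.6 to 43.3% and 13.8 to 50.2% in the controls, all above the highest interval in cKO, 0.903 to 1.16% in cKO 3.

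Control shares of the other members were imprecise, since 288 family reads stood behind all 3 controls. Cryba1 took 19.9, 20.2 and 32.2% of family reads in cKO 1, 2 and 3, against 15.1, 10.2 and 14.8% in controls 2, 3 and 4, with no overlap between the groups. Crybb1 took 8.52 ± 3.42% in cKO and 10.7 ± 0.467% in controls, and Crybb3 9.87 ± 2.96% in cKO and 19.0 ± 12.9% in controls (SD, n = 3 each), and for both the groups overlapped. Cryba2 averaged 1.84% in cKO and 2.10% in controls, Cryba4 3.22% in cKO and 4.45% in controls, and Crybb2 0.0180% in cKO and 1.36% in controls, and these groups overlapped too. The exact 95% upper limit of a share with 0 reads was 12.8% in control 4 and 1.72% in control 2, and 3 reads, taken as the limit of a count of 0, would be 11.1% in control 4 and 1.42% in control 2. Per kilobase, Cryaa made up 42.5 ± 2.12% in cKO and 16.7 ± 6.80% in controls, and Cryab 0.746 ± 0.417% in cKO and 28.1 ± 5.57% in controls.

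**Figure D3:**
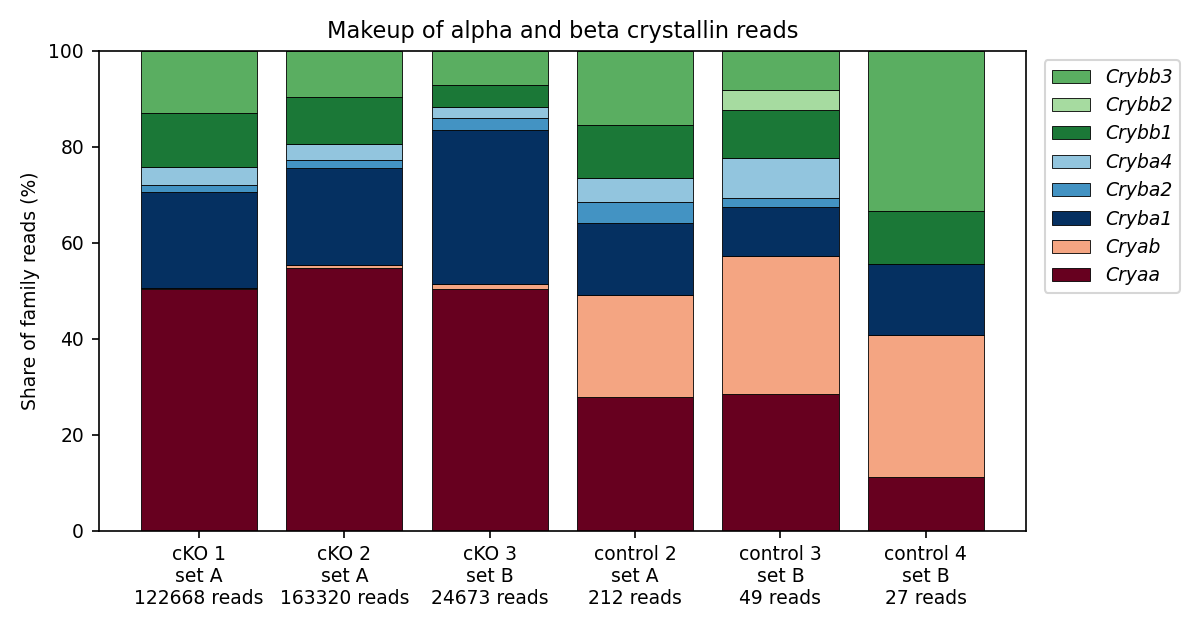
Share of all alpha and beta crystallin reads taken by each member (y axis, percent) in each library, with its family read count under the bar. Cryab (pale orange) is at most 1.03% in the cKO libraries and 21.2 to 29.6% in the controls.

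The cKO libraries also differed from each other by library set. Crybb1 averaged 232 CPM in the set A cKO libraries and 39.2 CPM in cKO 3, a ratio of 5.92, while Cryab averaged 10.1 and 8.61 CPM, a ratio of 1.18. The ratio was 4.31 for Cryba4, 4.23 for Crybb3, 2.76 for Cryaa and 1.65 for both Cryba1 and Cryba2. As a result acidic beta reads were 1.04, 1.31 and 3.15 times the basic ones in cKO 1, 2 and 3. In the edgeR model with genotype and set, 6 of the 7 tested members passed as higher in set A, against 31.2% of all genes tested. Set A minus set B came to 2.52 for Crybb1 on the log2 scale (SE 0.14, adjusted p = 2.03e-06), to 0.88 for Cryba1 (SE 0.19, adjusted p = 0.00278) and to 0.64 for Cryab, which did not pass (SE 0.34, adjusted p = 0.124). Cryba2 did not pass without cKO 2 (adjusted p = 0.0538), nor Cryba4 without cKO 3 (adjusted p = 0.0840), and Cryab passed without cKO 1 (adjusted p = 0.0145) or without cKO 3 (adjusted p = 0.0363). No label records these sets, and with 1 cKO library in set B its animal and its set cannot be told apart.

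Within each set the cKO retinas still exceeded the controls for every member. The ratio was 913 in set A (95% counting interval 708 to 1199) and 1582 in set B (988 to 2717) for Cryaa. For Cryab it was 10.7 in set A (7.92 to 14.7) and 24.9 in set B (16.1 to 40.5), both far below Cryaa. Crybb1 gave 458 in set A (305 to 723) and 312 in set B (158 to 724). Crybb2 was at least 5.94-fold higher in set A, taking 3 reads as the floor for control 2, and 5.41-fold in set B, where the interval of 0.886 to 56.9 includes no difference. The interaction of set and genotype passed the threshold for 0 of the 7 members in edgeR, against 0.024% of all genes, with unadjusted p of 0.00237 for Cryba1 and 0.0202 for Cryba2 and above 0.05 for the others.

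**Figure D4:**
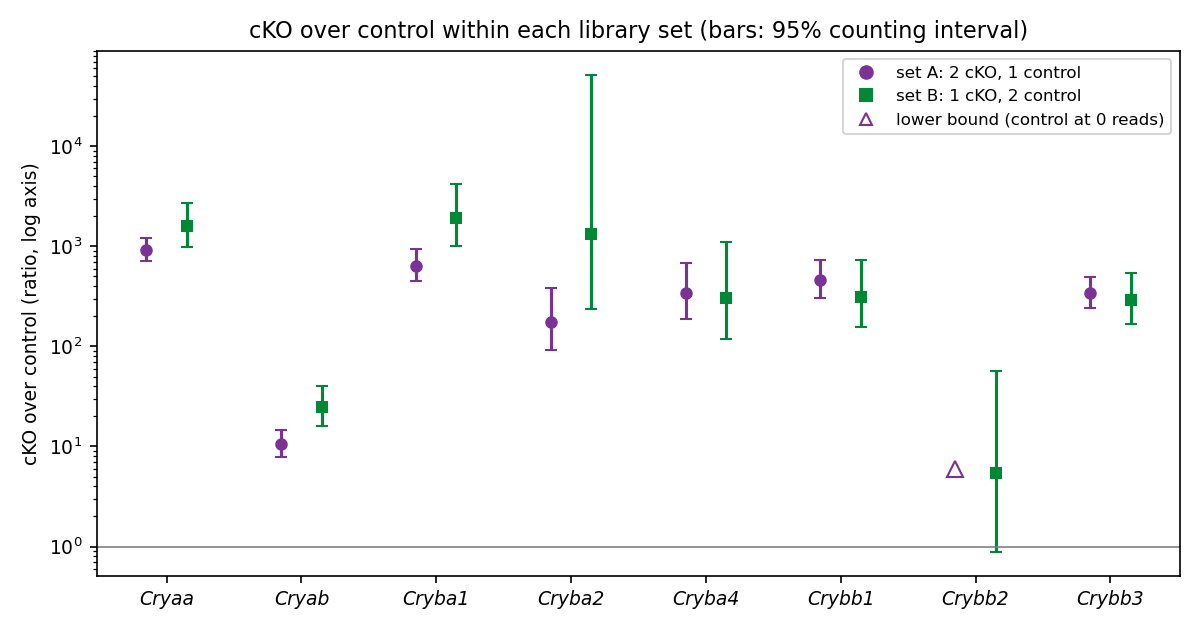
Ratio of cKO to control reads for each member on a log axis within set A (circles) and set B (squares), with 95% counting intervals; the triangle is a lower bound against a control with 0 reads. Cryaa reached 913 and 1582, and Cryab 10.7 and 24.9.

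The genes next to the members on the chromosome were also read. Of 14 nearest or overlapping genes that are not members, 7 were tested. In edgeR with library set as a term 0 rose (against 6.36% of all genes) and 1 fell (against 5.63%). At an unadjusted p under 0.05, 0 were higher and 2 lower, and DESeq2 also called 0 higher and 2 lower. With 7 genes tested, nothing is read from these counts. The highest log2 fold change of the 7 was 0.05. The gene that fell was 2900026A02Rik, 4738 bases from Crybb3, at 26.9, 41.0 and 19.2 CPM in cKO 1, 2 and 3, against 68.9, 31.9 and 44.0 CPM in controls 2, 3 and 4 (log2 fold change -1.003, SE 0.18, adjusted p = 0.00942). It did not pass when control 2 (adjusted p = 0.0864) or cKO 3 (adjusted p = 0.0892) was left out, or with sex as a further term (-0.68, adjusted p = 0.243). Nufip2, inside which Cryba1 lies on the opposite strand, was at 53.9, 60.97 and 103 CPM in cKO 1, 2 and 3, against 59.3, 106 and 104 CPM in controls 2, 3 and 4 (-0.04, SE 0.08, adjusted p = 0.816). Tpst2, 7105 bases from Crybb1, averaged 17.2 CPM in cKO and 14.6 CPM in controls (log2 fold change 0.03, SE 0.12, adjusted p = 0.901). Cryba4 and Crybb1 lie head to head 3296 bases apart.

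Reads of other lens crystallins were also found mainly in cKO. The 6 genes of the gamma cluster summed to 265, 304 and 98.3 CPM in cKO 1, 2 and 3, against 0.502, 0.120 and 0.0993 CPM in controls 2, 3 and 4. They passed the filter on low counts through their cKO libraries, as did Crygs, Crygn and Grifin, so the calls of these genes as higher (6 of 6, and 3 of the 10 tested relatives, against 6.36% of all genes) are not read as support. In edgeR 0 relatives fell (2 at an unadjusted p under 0.05, 0 in DESeq2). Crygn, a crystallin between the beta and gamma types, was at 19.3, 17.1 and 6.16 CPM in cKO 1, 2 and 3, against 0.306, 0.120 and 0.0331 CPM in controls 2, 3 and 4 (log2 fold change 6.002, SE 0.26, edgeR). Crygs, with 2 reads in all controls together, had a ratio of cKO to control of 1467 (95% counting interval 406 to 12120). Grifin, a lens galectin with 3 control reads, had one of 146 (49.7 to 710.1). The related genes Crybg1, Crybg2, Crybg3, Cryz, Cryzl1 and Cryl1 did not pass, with log2 fold changes from -0.35 to 1.11. Crym, a thyroid hormone binding protein, was at 71.2, 80.3 and 2.48 CPM in cKO 1, 2 and 3, against 177, 6.58 and 49.9 CPM in controls 2, 3 and 4, and did not pass (-2.07, SE 0.73, adjusted p = 0.108). It was called lower without control 4 (-1.28, adjusted p = 0.00139) or with no filter on low counts (-2.10), and its value was 0.04 with sex as a further term (adjusted p = 0.990). The list's median was -0.02, and that of all genes tested was -0.000982.

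The list of small heat shock genes, the family of the alpha crystallins, held 9 genes. Whether each of them, Hspb11 included, belongs to that family was not checked. Of the 9 listed genes, 4 had too few reads to be tested. They include Hspb2, with a ratio of cKO to control of 7.62 (95% counting interval 1.88 to 66.9) that rests on 2 control reads. Of the 5 tested, 0 rose (against 6.36% of all genes) and 1 fell (against 5.63%) in edgeR with library set as a term. The counts were also 0 higher and 1 lower at an unadjusted p under 0.05 and in DESeq2. Hspb1, the closest in tissue range to Cryab, was at 2.02, 1.91 and 0.817 CPM in cKO 1, 2 and 3, against 1.73, 0.777 and 0.563 CPM in controls 2, 3 and 4 (log2 fold change 0.22, SE 0.28, adjusted p = 0.679). Hspb6 fell (log2 fold change -0.55, SE 0.15, adjusted p = 0.0432). Its groups overlapped over all libraries but not within either set, and it did not pass without cKO 3, control 2, control 3 or control 4 (adjusted p from 0.0782 to 0.298), or with sex as a further term (-0.40, adjusted p = 0.450). Of 14 further chaperone and heat shock response genes 0 passed in edgeR, against 12% of all genes. At an unadjusted p under 0.05, 1 of them was higher and 1 lower. DESeq2 called 1 of them higher, Hmox1, whose log2 fold change in edgeR was 0.78 (SE 0.25, adjusted p = 0.0824).

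Of 24 listed factors known to regulate crystallin genes in the lens, 21 were tested. With library set as a term 4 rose (against 6.36% of all genes), 1 fell (against 5.63%) and 16 did not pass, and the median log2 fold change was -0.02. Sox1, which drives gamma crystallin genes in mouse lens fibres, was at 10.3, 12.1 and 24.0 CPM in cKO 1, 2 and 3, against 0.546, 1.55 and 2.42 CPM in controls 2, 3 and 4 (log2 fold change 3.89, SE 0.24, edgeR adjusted p = 4.305e-05). Sox1 was highest in cKO 3, and among the controls it was also higher in set B (1.55 and 2.42 CPM) than in set A (0.546 CPM).

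Pitx3, a homeodomain factor of the early lens, was at 3.43, 2.14 and 1.43 CPM in cKO 1, 2 and 3, against 0.153, 0 and 0 CPM in controls 2, 3 and 4. Hsf4, the heat shock factor of the lens, averaged 2.29 ± 0.778 CPM in cKO and 0.333 ± 0.206 CPM in controls (SD, n = 3; log2 fold change 2.56, SE 0.47). Hsf4 lost its call without cKO 3 (adjusted p = 0.0595) or control 2 (adjusted p = 0.0987). Both genes rose with library set as a term. Pitx3 passed the filter on low counts through its cKO libraries. Hsf4, with 16, 4 and 16 reads in controls 2, 3 and 4, also needed its cKO libraries to pass. Their calls as higher are therefore not read as support.

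Maf, which binds the core marked in the promoters above, was at 43.4, 41.4 and 163 CPM in cKO 1, 2 and 3, against 22.1, 72.4 and 98.1 CPM in controls 2, 3 and 4. The groups overlapped over all libraries but not within either set, and with the set term Maf rose (log2 fold change 0.94, SE 0.12, edgeR adjusted p = 0.00246). Sox2 fell by 0.51 (SE 0.09, adjusted p = 0.007845), and it did not pass without control 2 (-0.37, adjusted p = 0.133). Pax6, a regulator of both lens and retina, was at 783, 782 and 1547 CPM in cKO 1, 2 and 3, against 863, 1399 and 1505 CPM in controls 2, 3 and 4 (-0.03, SE 0.09, adjusted p = 0.896). Prox1, a fibre cell factor also made in retinal neurons, did not pass (-0.16, SE 0.14, adjusted p = 0.533). Foxe3, which marks lens epithelium, had 15, 13 and 3 reads in cKO 1, 2 and 3 and 0 reads in each control, too few to be tested. Without the set term 0 of the 21 factors passed in edgeR, and with sex as a further term Sox1 and Maf passed but Pitx3 (adjusted p = 0.0589), Hsf4 (0.0633) and Sox2 (0.185) did not.

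**Figure D5:**
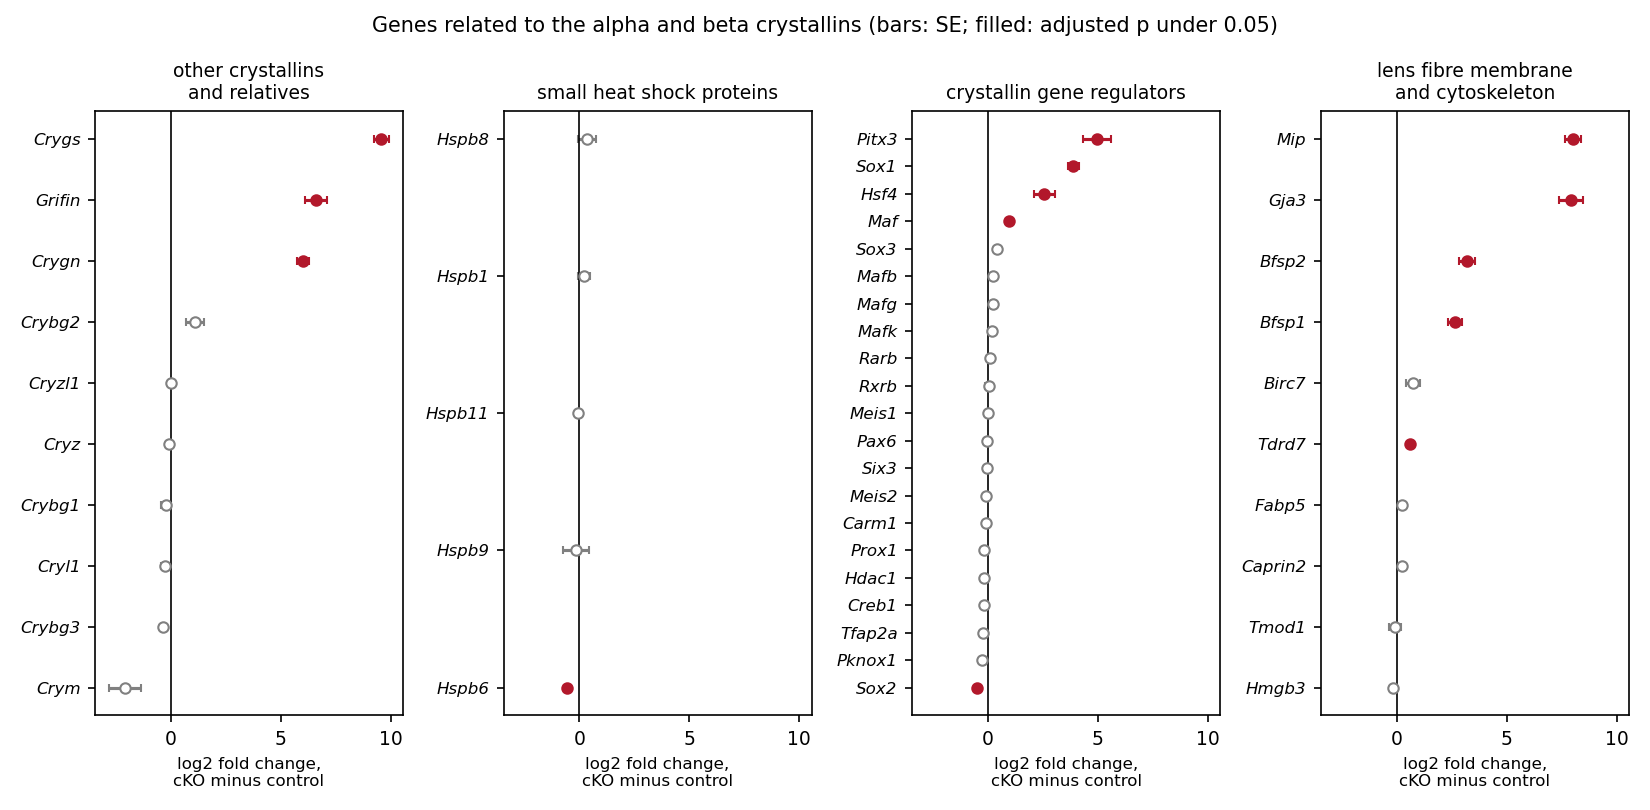
Fitted log2 fold change, cKO minus control, with SE bars (x axis) for the tested genes of 4 lists (rows); filled points have an adjusted p under 0.05 in edgeR with library set as a term. Crygs, Crygn, Grifin, Sox1, Pitx3, Mip and Gja3 stand far to the right; Crygs, Grifin and Gja3 had 3 or fewer reads over the controls, so their size depends on the fit.

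Some markers of lens cells were higher in cKO and others did not pass the test. Of the 13 lens fibre membrane and cytoskeleton genes 10 were tested, 5 rose (against 6.36% of all genes), 0 fell (0 lower at an unadjusted p under 0.05 and in DESeq2) and 5 did not pass, with a median log2 fold change of 0.68. Mip, the fibre water channel, was at 15.6, 16.6 and 5.51 CPM in cKO 1, 2 and 3, against 0.0874, 0 and 0 CPM in controls 2, 3 and 4. Gja3, a fibre connexin with 1 control read, rose with a ratio of cKO to control of 400.0 (95% counting interval 71.5 to 15830). The beaded filament genes Bfsp1 (log2 fold change 2.64, SE 0.31) and Bfsp2 (3.19, SE 0.36) also rose, as did Tdrd7 (0.62, SE 0.11), which did not pass without control 2 (adjusted p = 0.115) or with sex as a further term (adjusted p = 0.164). Without the set term edgeR called 2 of the 10, Mip and Gja3, and both passed the filter on low counts through their cKO libraries. DESeq2 without the set term called 4 of the 10 higher. Lim2, an abundant fibre membrane protein, had 1, 1 and 0 reads in cKO 1, 2 and 3 and 0 reads in each control, and Dnase2b had 2, 4 and 0 reads in cKO and 0 in each control. The summed level of this list overlapped between the groups, at 552 to 932 CPM in cKO and 548 to 1078 CPM in controls, most of it from Hmgb3 and Fabp5. Of the 8 lens epithelium genes 6 were tested, and Cdh1 and Ccnd2 rose (against 6.36% of all genes). The list's summed level was 108 to 204 CPM in cKO and 84.9 to 121 CPM in controls. In edgeR Ccnd2 did not pass with sex as a further term (adjusted p = 0.0518), and neither gene passed without the set term. DESeq2 without the set term called 2 genes of this list higher. The part of lens cells in the crystallin reads was not tested.

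The retina label was checked against its markers. All 11 retina genes were tested, and their summed level was 2448 to 4642 CPM in cKO and 2836 to 5275 CPM in controls, which overlapped. With library set as a term edgeR called 6.36% of all genes higher and 5.63% lower, to be read beside each list count here. Six6, Rax, Otx2 and Ptf1a fell with that term, and Pou4f2, a ganglion cell factor, rose. Without cKO 3, 2 retina genes fell and 0 rose (Pou4f2 adjusted p = 0.0632), and 2 fell without any one control. With sex as a further term 0 fell and 0 rose (adjusted p from 0.0778 to 0.360 for these 5 genes, of which Otx2 had the highest and Pou4f2 the lowest). The counts were also 0 and 0 in edgeR without the set term, while DESeq2 without the set term called 1 lower and 0 higher. Of 9 ganglion cell genes 8 rose (against 6.36% of all genes). Their sum was 1553 to 2534 CPM in cKO and 1071 to 1528 CPM in controls. The number called higher was 2 without cKO 3, 3 without control 3 and 5 without control 2. It was 1 with sex as a further term and 0 without the set term. Among 9 tested pigment epithelium genes 0 passed in edgeR (1 higher at an unadjusted p under 0.05, 0 in DESeq2), with a sum of 109.7 to 219 CPM in cKO and 107 to 139.6 CPM in controls. In the ciliary margin list Ccnd2, which is also in the lens epithelium list, Wls and Zic1 rose, 3 of 10, with a sum of 299 to 404 CPM in cKO and 259 to 295 CPM in controls.

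The same shares over all genes, 6.36% higher and 5.63% lower, stand beside the counts of the next lists. In the astrocyte list Igfbp2 alone rose of 7. The list's sum was 239 to 276 CPM in cKO and 197 to 248 CPM in controls. In the blood and endothelium list Pecam1, Cdh5, Hba-a1 and Hbb-bt rose and Kdr fell of 7 tested, with a sum of 269.8 to 473 CPM in cKO and 524 to 688 CPM in controls. Kdr, which is also made by retinal progenitors, held most of that sum, and without it the list summed to 29.95, 31.99 and 49.2 CPM in cKO 1, 2 and 3, against 16.0, 5.59 and 9.21 CPM in controls 2, 3 and 4. In the cornea and skin list Krt15 fell of 3 tested, with a sum of 3.92 to 4.70 CPM in cKO and 5.93 to 11.2 CPM in controls, and the corneal gene Kera had 0 reads in every library. In the muscle list Myh8 rose and Myh3 fell of 3 tested, with a sum of 3.39 to 5.04 CPM in cKO and 4.04 to 7.24 CPM in controls. Hbb-bt and Myh8 passed the filter on low counts through their cKO libraries, so their calls as higher are not read as support. Without the set term 0 genes of the ciliary margin, astrocyte, blood and endothelium, cornea and skin, and muscle lists were called in edgeR. Refits with sex or with libraries left out were not counted for these lists. The part of the cells of these lists in the crystallin reads was not tested.

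By likeness to the summed family level over the 6 libraries (Pearson r of log2 CPM), the nearest genes were Cryge, Cntn2, Crygb, Ccdc24, Mip, Crygf, Mlc1, Sparc, Grik4 and Cd200, with r from 0.9964 to 0.9995. These correlations share libraries, genotype and set and say nothing of size. Cntn2, an axonal adhesion protein, was at 133, 121 and 105 CPM in cKO 1, 2 and 3, against 22.7, 15.4 and 13.8 CPM in controls 2, 3 and 4. Cd200, a membrane glycoprotein, ran only from 70.7 to 76.9 CPM in cKO and from 46.3 to 52.5 CPM in controls. Of the list, Cryge, Crygb, Crygf and Mip are lens genes.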

How the data were processed

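Retinal RNA of 6 mice was sequenced, and the values used are the whole-number read counts per Ensembl gene as deposited, 1 library per file, not normalized. The submitters' processing notes name STAR, HTSeq and edgeR as tools, and GRCm38 as the genome build. Tool versions and the strand setting were not given in the sources used here. The 5 rows that name no gene held 26.41 to 28.76% of counts and stayed out of library sizes and tests. Symbols, coordinates and exon lengths came from GENCODE vM21, which matched 37607 of 39179 identifiers (95.99%).

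In R 4.3.3, edgeR 4.0.16 (filterByExpr, TMM, glmQLFit, glmQLFTest, Benjamini-Hochberg over 16691 genes, threshold 0.05) was fitted with genotype and library set. Set A held the libraries over 2.9% ambiguous. The fit was checked on simulated data, with changes smaller than those of the members, so the check does not cover the members. DESeq2 1.42.0, other scalings and filters, a sex term, replicate blocks and leaving out each library were alternatives. The series text counts 3 mice per group and says nothing of litters. No 2 libraries of a group agreed within sampling noise (chi-square per degree of freedom 24.8 to 574).

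Members, lists and tests were chosen with earlier results of these data known. The named genes were the members, list members past the threshold or of smallest p, nearest genes on the chromosome, and the 10 genes of highest correlation with the family (mean CPM at least 1); list members named otherwise were chosen after their values were seen. TPM was computed from counts per kilobase of exon. Promoter sequences are RefSeq's. Of the marker lists, 1 lens fibre and 1 retina gene are not reported here and enter no list count, median or sum.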

Additional observations from a re-analysis of the deposited data

How the results depend on the processing

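The log2 fold changes of the 7 tested members kept their direction in all 154 refits and their side of the threshold in 120. All 34 lost calls came from edgeR fits with genotype alone, which called 6 members with all libraries. Those fits called between 0 and 6 when each library was left out (3 without control 2, 6 without cKO 3, 0 without any other). DESeq2 with genotype alone called 7 members with all libraries. With the set term 7 or 8 members were called in every refit, including 7 with sex as a further term. The family ratio on the log2 scale ran from 9.27 to 10.45 over other scalings and left-out libraries, against 9.78.

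Over all genes, 1062 were higher and 939 lower with library set. The counts were 36 and 0 without the term, 173 and 63 with sex added, and 313 and 155 in DESeq2 without the term. DESeq2 with it gave 1672 lower, and no filter on low counts 1592 lower. Leaving out single libraries gave 176 to 1371 higher and 134 to 1336 lower with the term (lowest without cKO 3), and 0 to 34 higher and 0 to 3 lower without it. Maf had a log2 fold change of -0.59 without cKO 3 and -0.05 without control 2 in fits without the set term, against 0.94 with it; the cause was not tested.

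Label numbers 2 and 3 occur in both groups. Same-numbered libraries deviated together (r = 0.770 and 0.674), as all libraries of one set did, and with 2 pairs the numbers are not shown to pair animals. With the label number as a replicate block in place of set, 1007 genes were higher, 1033 lower and 7 members called. The block on the 4 libraries numbered 2 and 3 gave 1137 higher, 1152 lower and 7 members. Crym, not called with library set, was called lower under both blocks (-1.22, adjusted p = 0.00140 and 0.000637), and Ptf1a was not called under either (adjusted p = 0.0674 and 0.0577). Depth limits the controls, where 288 family reads stand behind all shares.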
